A study of Mus musculus with 2 samples.

Results

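10 genes of intestinal drug and bile acid handling are described here, out of the 31053 genes counted in a single-cell RNA sequencing matrix of mouse small intestinal organoids. They are the cytochrome P450 genes Cyp3a11, Cyp3a13, Cyp3a25, Cyp2c29, Cyp2c65, Cyp2c66 and Cyp2b10, the carboxylesterase gene Ces2a, and the nuclear receptor genes Nr1i2 and Nr1i3. The 10 genes were chosen by name with earlier results of these data in view, so their levels by cell group and by barcode set are given as a description. Organoids of this kind are epithelium grown in culture from intestinal crypts. A control and a melatonin-treated sample are listed, and for each the cells of 3 lines were combined on day 3 of culture. The labels state no strain, genotype or dose.

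The 3 files of the melatonin sample are byte for byte those of the control sample, so a single matrix was analysed as 1 sample. Its barcodes end in the suffix 1 (set 1) or 2 (set 2; the numbers are the suffix, not part of a library name), and nothing in the labels ties a suffix to a treatment. No treatment effect can be read from these values, and the direction of a ratio of set 2 to set 1 has no meaning of its own. A barcode counted as a cell if it had 500 genes or more, 1000 unique molecular identifiers (UMIs, 1 per captured RNA molecule) or more and no more than 20% of them mitochondrial. That left 2300 cells and 61628537 UMIs in set 1 and 1766 cells and 51111519 UMIs in set 2, at median depths of 29872 and 28759 UMIs. There are no replicates, and no test was run. Intervals in brackets are 95% intervals for counting error alone.

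The products of these genes form a sensing and clearance system. Nr1i2 encodes the pregnane X receptor and Nr1i3 the constitutive androstane receptor, which bind drugs, bile acids and other small molecules and act on DNA together with retinoid X receptors. Genes of the CYP3A, CYP2B and CYP2C families are their textbook targets, and the encoded enzymes oxidise drugs, steroids and fatty acids in the membrane of the endoplasmic reticulum. Ces2a encodes a carboxylesterase that splits ester drugs and lipids. In the intestine this system is best known from absorptive enterocytes of the villus.

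The promoters of 3 members are shown: that of Cyp3a11 because it holds the rarest motif match among the members, and those of Cyp2c65 and Cyp2c66 to show how alike these near copies are. Each is the stretch of 250 bases before the RefSeq transcript start (build GRCm38.p6), 5′ to 3′ on the strand of the gene, and the deposited files name no build of their own. Cyp3a11 lies at chr5:145879855-145880104 on the minus strand, Cyp2c65 at chr19:39060756-39061005 and Cyp2c66 at chr19:39113648-39113897, both on the plus strand. Capitals mark matches to the 6-base nuclear receptor elements AGGTCA and AGTTCA (on the minus strand TGACCT and TGAACT), to a direct repeat of AGNTCA with 4 bases between the copies and to the HNF4 motif CAAAGTCCA, searched on both strands, and in Cyp2c66 the bases that align with the HNF4 match of Cyp2c65.
Cyp3a11: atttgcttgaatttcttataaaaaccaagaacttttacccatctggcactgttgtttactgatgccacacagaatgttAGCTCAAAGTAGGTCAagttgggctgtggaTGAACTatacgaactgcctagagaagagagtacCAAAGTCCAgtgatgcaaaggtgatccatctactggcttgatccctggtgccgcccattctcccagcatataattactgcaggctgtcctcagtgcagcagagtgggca
Cyp2c65: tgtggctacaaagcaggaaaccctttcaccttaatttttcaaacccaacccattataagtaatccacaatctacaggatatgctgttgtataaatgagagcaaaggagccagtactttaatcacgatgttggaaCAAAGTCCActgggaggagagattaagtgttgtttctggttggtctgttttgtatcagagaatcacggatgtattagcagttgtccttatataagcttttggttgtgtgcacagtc
Cyp2c66: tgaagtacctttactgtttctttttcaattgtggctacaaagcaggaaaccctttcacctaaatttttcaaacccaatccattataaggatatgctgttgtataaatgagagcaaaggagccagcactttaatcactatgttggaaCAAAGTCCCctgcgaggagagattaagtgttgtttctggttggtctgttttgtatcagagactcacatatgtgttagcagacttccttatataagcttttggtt
In Cyp3a11 the direct repeat spans bases 172 to 157 before the start and contains the AGGTCA element, and the HNF4 match spans bases 109 to 101. The direct repeat occurs in 0.125% of 32851 RefSeq promoter windows of 300 bases, the HNF4 letters in 0.475%, AGGTCA in 16.3% and AGTTCA in 14.0%. Of the 10 members, Cyp3a11 alone had the direct repeat in its window. A direct repeat of AGNTCA with 3 bases between the copies, and TGANCT followed by AGNTCA after 6 bases, occur in 0.0700% and 0.0304% of windows and in no member's. AGGTCA also occurs in the windows of Cyp3a25, Cyp2c29 and Ces2a, and the other 6 members have neither 6-base element there. The windows of Cyp2c65 and Cyp2c66, of 300 bases each with the printed 250 as a part, align over 271 bases with 256 identical (94.5%). The alignment also holds 22 gap bases, which this share leaves out. Within the HNF4 match of Cyp2c65, counted from 1 at its first base, the windows differ by the substitution A9C. No link between these letters and the levels was tested. A match of letters is not a measured binding site, and a missing match says only that these letters are not in this window.

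Because the counting uses the 3′ part of transcripts, related genes could share reads. Over their GENCODE vM21 transcripts, Cyp2c65 and Cyp2c66 were 96.5% identical in 1612 aligned bases, and the other pairs within the CYP3A and CYP2C members were 75.9% to 78.3% identical. Of the 451 stretches of 50 bases in the last 500 bases of a transcript, 21.5% of those of Cyp2c66 occur in another gene, all in Cyp2c65. The share was 9.98% for Ces2a (with Ces2e and Ces2b among the other genes), 7.54% for Cyp2b10 (Cyp2b13), 3.33% for Cyp2c65, 3.1% for Cyp3a25 (Cyp3a59) and 0.443% for Cyp3a11. It was 0 for Cyp3a13, Cyp2c29, Nr1i2 and Nr1i3. Levels of Cyp2c66 are therefore the least certain of the 10 in this respect.

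Cells were grouped by gates on fixed marker lists that hold none of the 10 genes. The enterocyte gate asks for at least 100 UMIs of 12 enterocyte markers (Alpi, Apoa1, Lct, Sis and others) per 10000 UMIs of the cell and took 135 cells of set 1 (5.87%, interval 4.94% to 6.91%) and 189 of set 2 (10.7%, 9.30% to 12.2%). The enteroendocrine gate took 279 and 287 cells, the goblet gate 50 and 24, and a gate on revival markers (Clu, Anxa1, Ly6a and others) 16 and 27. Cells outside these gates were split by proliferation and stem markers into a cycling group high in stem markers (1075 and 672 cells), a cycling group low in them (536 and 280) and a non-cycling group (194 and 275). A Paneth gate took 15 and 12 cells that were led by Sst and Dlk1, and it is not described as a cell type. The enterocyte gate is a range on a continuous score, with 71 cells within a factor of 0.8 of the threshold on either side, and 129 kept cells passed more than 1 lineage gate. Its 10 leading genes hold Apoa1, Lct and Fabp1 of the marker list, beside Cyp3a11 and Cyp2c29. The hepatocyte genes Alb, Serpina1c, Fgb, Ahsg and Apoh summed to 9.85 UMIs per 1000000 UMIs (CPM) in set 1 and 7.08 CPM in set 2, with Ahsg at 0 in both, and to 0.958 and 0.152 CPM within the enterocyte gate. The 5 immune markers summed to 4.45 and 4.23 CPM, with Ptprc at 0 in both sets.

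Cyp3a11, Cyp2c29 and Cyp2b10 were concentrated in the enterocyte gate. Cyp3a11, the main drug-oxidising CYP3A enzyme of mouse liver and gut, reached 1823 CPM (1782 to 1865) in the enterocyte gate of set 1 and 2307 CPM (2270.2 to 2344) in that of set 2, against 20.2 and 19.7 CPM in all other kept cells. The gate held 86.8% of all its UMIs in set 1 and 94.5% in set 2, beside 6.78% and 12.9% of the UMIs of all genes. Cyp2c29, an arachidonic acid epoxygenase of the CYP2C family, stood at 2091 CPM (2047 to 2135) and 3486 CPM (3441 to 3531), which is 58.5-fold and 110.1-fold over the other cells. Cyp2b10, the classical target gene of the constitutive androstane receptor, stood at 1483 CPM (1447 to 1521) and 2129 CPM (2094 to 2165), 39.8-fold and 74.7-fold over the other cells. These levels were spread over many cells: the 3 highest cells held between 4.90% and 12.4% of the UMIs of each of the 3 genes in the gate. Among the 189 gated cells of set 2, Cyp2c29 ran from 0 to 20716 CPM with a median of 3167 CPM, and 95.2% of the cells had at least 1 UMI. These folds depended on the cell filter: with a limit of 10% mitochondrial UMIs, the log2 fold of Cyp3a11 in the gate over other cells went from 6.43 to 4.72 in set 1, and in set 2 from 6.80 to 5.74. It went from 5.83 to 3.96 and from 6.74 to 6.04 for Cyp2c29, and from 5.28 to 4.02 and from 6.17 to 5.19 for Cyp2b10.

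**Figure D1:**
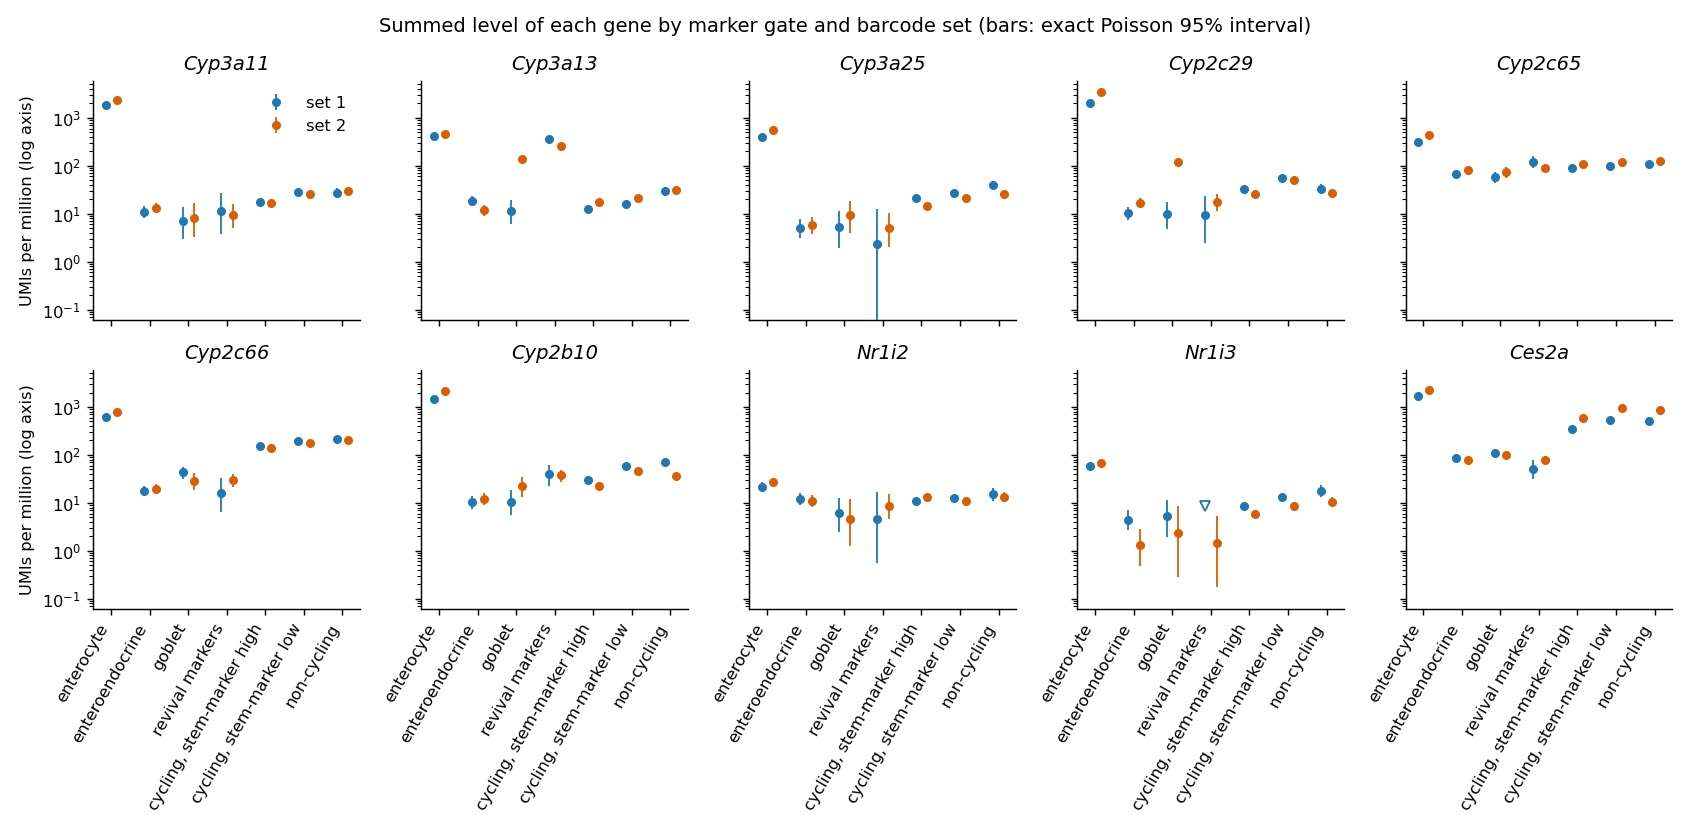
Each panel shows 1 gene: the y axis is its summed level in CPM on a log scale, the x axis the marker gate, and the colours the 2 barcode sets; bars are exact Poisson 95% intervals and the open triangle is the upper limit for a gate with 0 UMIs. Cyp3a11, Cyp2c29 and Cyp2b10 stand above 1000 CPM in the enterocyte gate and below 120 CPM in every other gate drawn, while Nr1i2 lies between 4 and 28 CPM throughout.

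Cyp3a25 and Nr1i3 were also higher in the enterocyte gate, at smaller folds, and less of their UMIs lay there: 56.8% and 83.9% for Cyp3a25 and 30.4% and 61.1% for Nr1i3. In set 1 the cycling group high in stem markers held more of the Nr1i3 UMIs, 38.1%. That group also held 57.0% of the UMIs of all genes in set 1, against 6.78% in the enterocyte gate. Cyp3a25, another CYP3A enzyme, stood at 394 CPM (376 to 414) and 570.4 CPM (552 to 589) in the gate, 18.1-fold and 35.2-fold over the other cells. Nr1i3 stood at 58.7 CPM (51.5 to 66.5) and 67.5 CPM (61.4 to 74.0), 6.02-fold and 10.6-fold over the other cells, which were at 9.75 and 6.36 CPM. With the limit of 10% mitochondrial UMIs the log2 fold of Cyp3a25 fell to 2.80 from 4.12 in set 1 and to 3.83 from 5.05 in set 2, and that of Nr1i3 to 1.24 from 2.47 and to 3.05 from 3.22. In enteroendocrine cells Nr1i3 was at 4.50 CPM (2.71 to 7.03) and, in set 2, 1.30 CPM (0.476 to 2.82). In the revival-marker gate of set 1 it had 0 UMIs, which allows up to 6.94 CPM at 3 counts, and in that of set 2 it had 2 UMIs.

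Ces2a, Cyp2c66, Cyp2c65 and Nr1i2 were spread more widely. Ces2a was at 1693 CPM (1653 to 1733) and 2291 CPM (2255 to 2328) in the enterocyte gate and still at 374 and 614 CPM in the remaining cells, a fold of 4.52 and 3.73. Cyp2c66, an intestinal enzyme of arachidonic acid metabolism, stood at 618 CPM (594 to 642) and 792 CPM (771 to 814) in the gate, 4.07-fold and 5.81-fold over the other cells. Its near copy Cyp2c65 stood at 313 CPM (296 to 331) and 443 CPM (427 to 459), 3.43-fold and 4.01-fold. Nr1i2 was the flattest of the 10, at 21.8 CPM (17.5 to 26.8) and 27.3 CPM (23.5 to 31.6) in the gate and 11.3 and 12.2 CPM outside it, a fold of 1.93 and 2.25. By the mark of a 2-fold excess on CPM plus a pseudocount of 1, 9 of the 10 members were past it in set 1 (all but Nr1i2) and 10 of 10 in set 2. Over all genes with at least 50 UMIs in the set, 7.38% were that much higher in the gate in set 1 and 7.45% in set 2, and 14.5% and 21.0% were that much lower, where the count of members was 0.

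The step from low to high marker level had a different size for each member. Cells outside the enteroendocrine gate were divided by their enterocyte marker UMIs per 10000, and the 57 and 109 cells at 400 or more were set against the 639 and 527 cells at 10 to 20. Cyp3a11 went from 11.8 to 3071 CPM in set 1 (261-fold) and from 15.2 to 3021 CPM in set 2 (198-fold). The folds were 253 and 222 for Cyp2c29, 198 and 148 for Cyp2b10, 44.4 and 45.8 for Cyp3a25, 34.5 and 26.6 for Cyp3a13 and 11.9 and 10.4 for Nr1i3. They were 7.32 and 3.52 for Ces2a, 6.28 and 5.62 for Cyp2c66, 4.72 and 4.38 for Cyp2c65 and 2.41 and 2.85 for Nr1i2. The order of the 10 members by fold was thus nearly the same in the sets, with Cyp3a11, Cyp2c29 and Cyp2b10 the upper 3 and Nr1i2 the lowest. Cyp3a11 was 19.4-fold and 26.6-fold higher in cells at 100 to 200 than in those at 10 to 20, and a further 13.4-fold and 7.46-fold higher at 400 or more. For Cyp2c66 the same steps were 3.26-fold and 3.56-fold, then 1.92-fold and 1.58-fold.

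**Figure D2:**
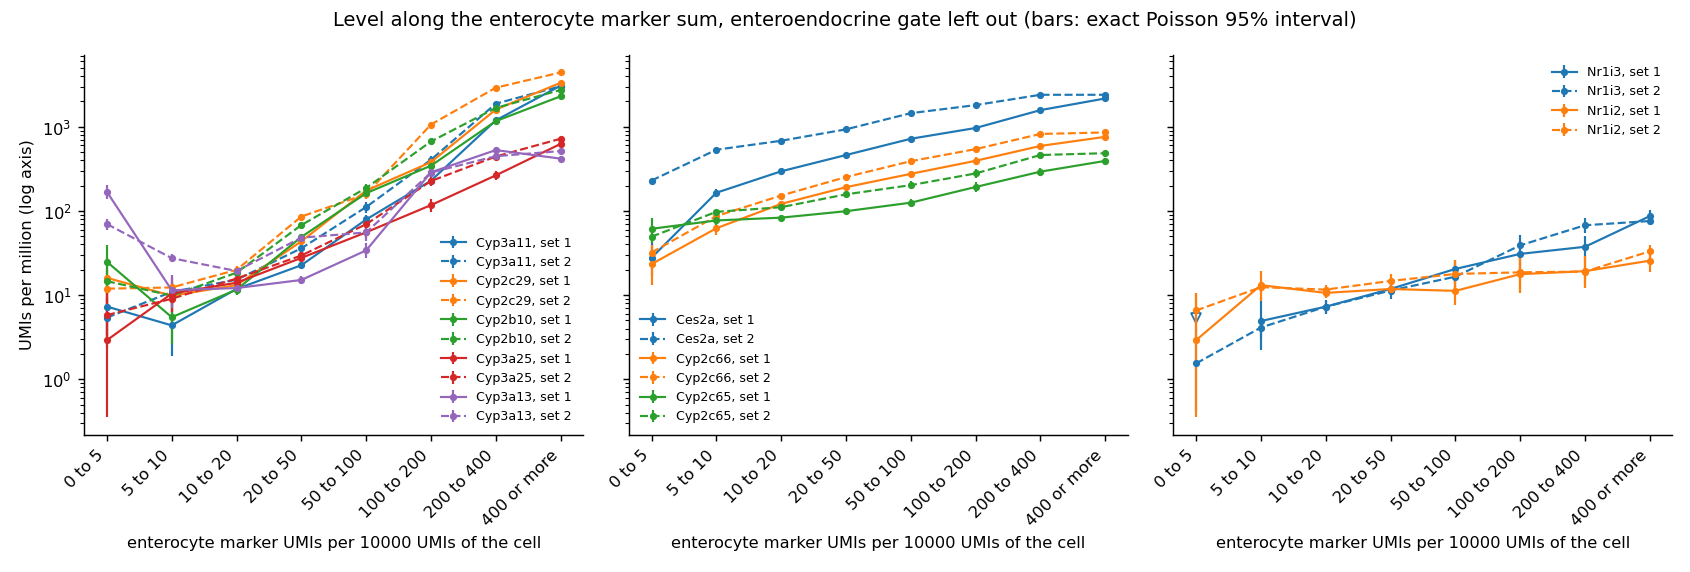
The x axis divides kept cells outside the enteroendocrine gate by enterocyte marker UMIs per 10000 UMIs, and the y axis is the summed level in CPM on a log scale; colours stand for genes, full lines for set 1, dashed lines for set 2, bars for exact Poisson 95% intervals and the open triangle for the upper limit at 0 UMIs. The lines of Cyp3a11, Cyp2c29 and Cyp2b10 climb by more than 100-fold between the ranges 10 to 20 and 400 or more, those of Ces2a, Cyp2c66 and Cyp2c65 by 3.52-fold to 7.32-fold, and Nr1i2 by 2.41-fold and 2.85-fold.

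Within the enterocyte gate, cells high in one of the 3 concentrated genes were also high in the others. Over the 135 gated cells of set 1, Spearman's rho of the cells' own CPM was 0.86 between Cyp3a11 and Cyp2b10, 0.84 between Cyp3a11 and Cyp2c29 and 0.77 between Cyp3a11 and the summed enterocyte markers. In the 189 cells of set 2 these values were 0.73, 0.69 and 0.63. Nr1i2 had a rho of 0.23 and 0.27 with Cyp3a11, and Nr1i3 of 0.44 and 0.43 with Cyp2b10. Ces2a moved with Cyp3a11 in set 1 (0.68) and less in set 2 (0.25). These cells share a culture, a library and the gate's marker range. Nr1i2 had a UMI in 43.7% and 56.1% of them and Nr1i3 in 70.4% and 79.9%, so the receptors' values rest on sparse counts.

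To set gates of different depth side by side, the share of cells with at least 1 UMI of a gene was computed for cells thinned to 2000 UMIs. Cyp3a11 was expected in 67.5% of the enterocyte-gate cells of set 1 (90.4% unthinned, median depth 32631 UMIs) and in 84.5% of those of set 2 (95.8% unthinned, 34163 UMIs). In enteroendocrine cells it was expected in 1.96% (12.9% unthinned, 14491 UMIs) and 2.65% (18.5%, 15202 UMIs), which gauges the background of a gene that these cells are not known for. With the limit of 10% mitochondrial UMIs its thinned share in the enterocyte gate was 37.9% and 53.2%. Nr1i3 was expected in 10.6% and 13% of enterocyte-gate cells and in 0.841% and 0.192% of enteroendocrine cells. For Nr1i2 the shares were 4.24% and 5.45% against 2.55% and 2.01%, and at this depth they lie near the level of a single UMI. Cyp2c65 was expected in 11.4% and 13.4% of enteroendocrine cells, Cyp2c66 in 3.13% and 2.93%.

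Cyp2c65 and Cyp2c66, the pair printed above, kept different ratios in different cells. In the enterocyte gate Cyp2c65 made up 33.7% of the pair's UMIs in set 1 (32.2% to 35.2%) and 35.9% in set 2 (34.8% to 36.9%). In enteroendocrine cells it made up 79.2% (74.7% to 83.3%) and 80.3% (76.4% to 83.8%), in the revival-marker gate 88.1% (77.1% to 95.1%) and 74.5% (67.1% to 81.1%), and in the goblet gate 57.0% (47.4% to 66.3%) and 71.6% (61.0% to 80.7%). The cycling group high in stem markers was nearer to the enterocytes than to the enteroendocrine cells, at 37.4% (36.4% to 38.4%) and 44.8% (43.5% to 46.1%). In levels, enteroendocrine cells held 68.7 CPM (61.0 to 77.1) and 81.3 CPM (73.3 to 89.9) of Cyp2c65, which is 21.9% and 18.3% of its enterocyte level. Cyp2c66 was there at 18.0 CPM (14.2 to 22.5) and 19.9 CPM (16 to 24.4), 2.92% and 2.51% of its enterocyte level. The 12 enterocyte markers measured in the same way had a median of 3.58% in set 1 (0.353% for Fabp1 to 39.7% for Sis) and 2.11% in set 2 (0.225% for Lct to 27.5% for Sis). The counting intervals of the pair's share in the enterocyte and enteroendocrine gates did not overlap in either set, and the part of free RNA in these counts was not tested. In the revival-marker gate, 3 cells held 78.8% and 67.5% of the Cyp2c65 UMIs, so that share rests on few cells.

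**Figure D3:**
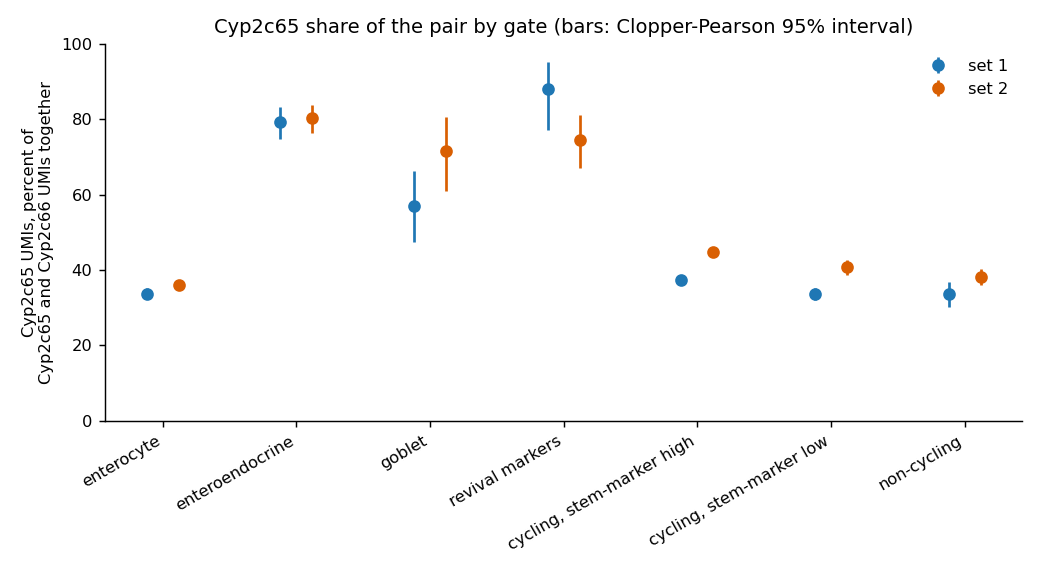
The y axis is the share of Cyp2c65 in the summed UMIs of Cyp2c65 and Cyp2c66 in percent, the x axis the marker gate and the colours the 2 barcode sets, with Clopper-Pearson 95% intervals. The enteroendocrine gate stands near 80% in both sets, and the enterocyte gate and the cycling and non-cycling groups lie between 33.5% and 44.8%.

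The receptors also differed in where they were found. Nr1i2 was in enteroendocrine cells at 12.1 CPM (9.0 to 15.9) and 11 CPM (8.21 to 14.5), which is 55.5% and 40.4% of its enterocyte level, and in the cycling group high in stem markers at 10.7 CPM (9.65 to 11.8) and 13.1 CPM (11.7 to 14.7). These neighbouring levels overlap in their intervals. Nr1i3 was in enteroendocrine cells at 7.68% and 1.92% of its enterocyte level. Of the UMIs of both receptors together, Nr1i2 had 27.1% (22.4% to 32.2%) and 28.8% (25.3% to 32.5%) in the enterocyte gate, and 72.9% (60.9% to 82.8%) and 89.5% (78.5% to 96.0%) in the enteroendocrine gate.

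Cyp3a13, a CYP3A enzyme of the gut epithelium, was the member with a second site. It stood at 414 CPM (395 to 434) and 458 CPM (442 to 475) in the enterocyte gate, 24.4-fold and 15.6-fold over the other cells. The enterocyte gate held 63.9% and 69.9% of its UMIs. In the revival-marker gate Cyp3a13 stood at 361 CPM (306 to 422) and 257 CPM (231 to 285). Thinned to 2000 UMIs, 34.9% and 31.0% of the cells of that gate had a UMI of it (81.2% and 85.2% unthinned), against 2.51% and 3.45% of the cycling group high in stem markers (29.5% and 38.8% unthinned). No other CYP3A member did so: Cyp3a11 was at 11.6 CPM (3.75 to 27.0) and 9.55 CPM (5.08 to 16.3) in that gate, and Cyp3a25 had 1 and 7 UMIs. The 3 highest cells held 80.1% and 49.1% of the Cyp3a13 UMIs of the gate, and without them it was at 112 and 156 CPM, still above the 12.3 and 17.7 CPM of the cycling group high in stem markers. This gate is led by Crct1, Ly6d and Anxa1. Along the enterocyte marker level Cyp3a13 was accordingly high at both ends in set 1, at 168 CPM (138 to 201) below 5, 11.4 CPM (7.09 to 17.5) from 5 to 10 and 417 CPM (389 to 447) at 400 or more. In set 2 those levels were 69.7 CPM (59.9 to 80.6), 27.4 CPM (24.6 to 30.5) and 513 CPM (491 to 536). In the range below 5, 3 cells held 81.7% and 61.9% of its UMIs, and without them its level there was 38.8 and 29.0 CPM. In the enterocyte gate 3 cells held 35.6% and 23.6% of its UMIs, and without them its level was 273 and 357 CPM. In the goblet gate of set 2, the 3 highest of 24 cells held 88.9% of its UMIs. The 3 highest cells for Cyp2c29, counted separately, held 97.0% of that gene's UMIs there, so both levels rest on few cells.

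Between the sets, 6 of the 10 members were at least 1.5-fold higher in set 2 over all kept cells and 0 were lower. Cyp3a11 was at 142 CPM (139 to 145) in set 1 against 315 CPM (310.0 to 319.7), Cyp2c29 at 175 CPM (172 to 178) and 477 CPM (471 to 483) and Cyp2b10 at 135 CPM (132 to 138) and 299.5 CPM (295 to 304), ratios of 2.21, 2.73 and 2.21. Cyp3a13 stood at 43.9 and 84.7 CPM (1.93), Cyp3a25 at 47.1 and 87.7 CPM (1.86) and Ces2a at 464 CPM (458 to 469) and 830.4 CPM (823 to 838), a ratio of 1.79. The ratios of Cyp2c65 (106 and 153 CPM), Cyp2c66 (183 and 221 CPM), Nr1i2 (12 and 14.1 CPM) and Nr1i3 (13.1 and 14.2 CPM) were 1.44, 1.21, 1.17 and 1.09. Of the 12895 genes that had 50 UMIs or more, 2.89% were that much higher and 1.66% that much lower in set 2. The median log2 ratio was 0.86 over the members and 0.049 over all genes tested.

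Set 2 also held the larger share of enterocyte-gate cells. When the cells of set 2 were weighted to the enterocyte-marker makeup of set 1, which was added after the values had been seen, 2 of the 10 members stayed past 1.5-fold, Ces2a at 1.91 and Cyp2c29 at 1.52, and 0 were that much lower. Over all 12895 genes at the same weighting, 1.59% were that much higher and 2.24% that much lower. The ratio became 1.16 for Cyp3a11, 1.30 for Cyp2b10, 1.22 for Cyp3a25, 1.42 for Cyp3a13 and 0.980 for Nr1i3, and was 1.45 for Cyp2c65, 1.30 for Cyp2c66 and 1.18 for Nr1i2. Within the enterocyte gate, 1 of the 10 was past 1.5-fold, Cyp2c29 at 1.67, and the other 9 lay between 1.11 and 1.45. There, 3.13% of 8683 genes were that much higher and 5.38% that much lower in set 2. The gated cells of set 2 had a median of 451 enterocyte marker UMIs per 10000 against 333 in set 1. Levels over all kept cells also depended strongly on the mitochondrial limit. At 10% in place of 20%, Cyp3a11 was at 27.1 CPM in set 1 and 48.0 CPM in set 2, Cyp2c29 at 42.3 and 78.1 CPM and Cyp2b10 at 46.5 and 54.9 CPM, while Nr1i2 was at 11 and 11.8 CPM. With that limit the overall log2 ratio turned from 0.88 to -0.086 for Cyp3a25, from 0.27 to -0.065 for Cyp2c66 and from 0.12 to -0.29 for Nr1i3. That of Cyp2b10 went from 1.14 to 0.23, and 4 members in place of 6 were past 1.5-fold.

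The difference in Ces2a between the sets was also found outside the enterocyte gate. In the cycling group high in stem markers it went from 350.2 CPM (344 to 356) to 578 CPM (568 to 588), a ratio of 1.65, and it was the 1 member of 10 past 1.5-fold there, with 0 that much lower. In that group 2.55% of 11272 genes were that much higher and 2.22% that much lower. The cycling group low in stem markers had 533 CPM (521 to 546) and 942 CPM (922 to 962), and the non-cycling group 519.7 CPM (492 to 548) and 859.5 CPM (836 to 883). In enteroendocrine cells the values were 87.9 CPM (79.2 to 97.3) and 77.6 CPM (69.8 to 86.1), which overlap. In the same cycling group high in stem markers, Cyp3a25 went the other way, from 21.1 CPM (19.6 to 22.7) to 14.5 CPM (12.9 to 16.2), as did Cyp2b10, from 30.6 CPM (28.8 to 32.5) to 22.8 CPM (20.9 to 24.9), and Nr1i3, from 8.74 CPM (7.79 to 9.77) to 5.86 CPM (4.90 to 6.96). Their ratios were 0.686, 0.746 and 0.671. Cyp2c29, from 32.8 CPM (30.9 to 34.7) to 25.8 CPM (23.8 to 28.1), and Cyp2c66, from 153 CPM (149 to 157) to 137 CPM (132 to 142), were lower too, while Cyp3a13, Cyp2c65 and Nr1i2 had ratios of 1.44, 1.21 and 1.23 and Cyp3a11 of 0.968. In the non-cycling group Cyp2b10 went from 70.6 CPM (60.6 to 81.6) to 36.3 CPM (31.7 to 41.5). Nr1i3 went there from 18.0 CPM (13.2 to 24.0) to 10.5 CPM (8.11 to 13.5). Cyp3a25 went from 39.6 CPM (32.2 to 48.1) to 25.5 CPM (21.6 to 29.8). These are ratios of 0.515, 0.585 and 0.643, and the intervals of Nr1i3 overlap slightly. Cyp2c29, Cyp2c66 and Nr1i2 had ratios of 0.809, 0.958 and 0.876 in this group. Those of Cyp3a11, Cyp2c65 and Cyp3a13 were 1.12, 1.17 and 1.05. Median depth in the group was 12181 UMIs in set 1 and 24517 in set 2. The share of all genes past 1.5-fold was not counted for it. The median enterocyte marker level was 21.0 per 10000 in set 1 and 11 in set 2 in the cycling group high in stem markers, and 26.0 and 13.1 in the non-cycling group, and its part in these ratios was not tested.

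**Figure D4:**
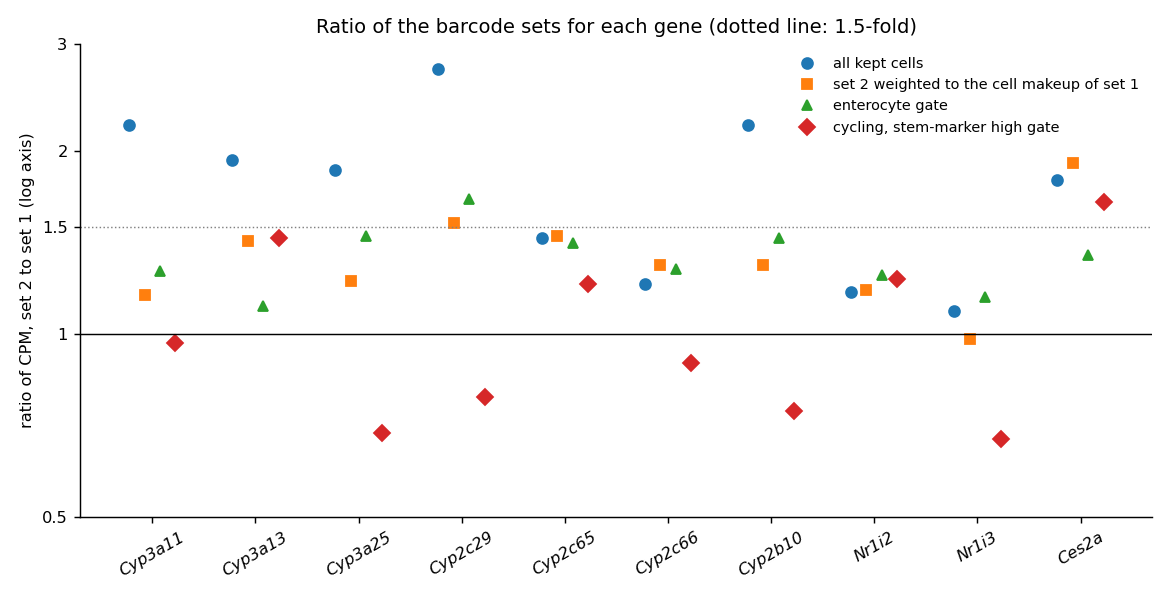
The y axis is the ratio of the summed level in set 2 to that in set 1 on a log scale, the x axis the gene, and the symbols the cells used. Over all kept cells 6 genes lie above the dotted 1.5-fold line, and at the cell makeup of set 1 only Cyp2c29 (1.52) and Ces2a (1.91) do; in the cycling group high in stem markers only Ces2a (1.65) does.

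Other genes of drug metabolism were taken from a list of 98, of which 77 had enough UMIs. Between the sets 8 were at least 1.5-fold higher in set 2 and 5 lower, and the median log2 ratio was 0.20, beside the 0.049 of all genes tested, of which 2.89% were that much higher and 1.66% that much lower. The higher ones at 10 CPM or more in a set were Ces1f (11.3 and 29.4 CPM), Abcc2 (69.6 and 142 CPM), Ephx1 (42.7 and 85.7 CPM), Abcb1a (97.4 and 171 CPM) and Ces1d (13.7 and 21.1 CPM), and the other 3, all below that level and named after their values were seen, were Cyp27a1, Ces1g and Abcc4. Abcb1a encodes P-glycoprotein, Abcc2 an export pump for conjugates and Ephx1 the microsomal epoxide hydrolase. The lower ones at that level were Slco2b1 (14.7 and 8.30 CPM) and Cyp2u1 (23.7 and 14.3 CPM). The other 3, named after their values were seen, were Nr0b2, Cyp2c38 and Cyp2d9. By role, 4 of 9 esterases and hydrolases, 3 of 9 transporters and 1 of 22 oxidation genes with enough UMIs were higher, and 0 of 14 conjugation genes and 0 of 23 receptors and cofactors. In the other direction, 3 of 22 oxidation genes, 1 of 9 transporters and 1 of 23 receptors and cofactors were lower, and 0 of 9 esterases and hydrolases and 0 of 14 conjugation genes. In the enterocyte gate 37 of 75 genes of the list were at least 2-fold higher than in other cells in set 1 and 40 of 74 in set 2. Over all genes tested, 7.38% and 7.45% were that much higher. Of the list 2 and 3 were that much lower, beside 14.5% and 21.0% of all genes. By role, the higher ones were 14 of 20 and 17 of 19 oxidation genes, and 7 of 9 and 6 of 9 esterases and hydrolases. They were also 8 of 14 and 7 of 14 conjugation genes, 4 of 9 and 5 of 9 transporters, and 4 of 23 and 5 of 23 receptors and cofactors.

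The genes most like each member were found by Pearson's r of log2 levels over 12 points, 6 cell groups in each of the sets, which share libraries and cells, among 7344 genes. Fabp1 and Mttp, named below, are markers that define the enterocyte gate, so the gating itself sets part of their likeness. For Cyp3a11 they were Fth1 (r = 0.992), Cyp4f14, Myo5b, Cyp2j6 and Cdr2, and for Cyp3a25 Fabp1 (0.994), Dgat1, Dhrs1 and Mttp. Cyp2b10 came closest to Fabp1 (0.990), Alas1, Fth1, Mdh2 and Dhrs1, where Alas1 encodes the first enzyme of heme synthesis. Cyp2c29 came closest to Rnf186 (0.982), Cgref1, Gpx4, Cndp2 and Gm5485. Cyp2c66 came closest to the enterocyte chemokine gene Ccl25 (0.999), Ugt2a3, H2-T3, Cox7c and Maoa, and Cyp2c65 to Fth1 (0.987), S100g, Myo5b, Sar1b and Acsl5. For Ces2a they were Gstm3 (0.990), Ugt2b5, Cox7c, Dnmbp and Coro2a. Cyp3a13 came closest to Ostf1 (0.976), B2m, Ms4a10, Fuca2 and Commd6. Among those most like Nr1i2 were Epb41l3 (0.953), Atp5l, Fahd1 and Gstm7, and Nr1i3 came closest to Cox7a2 (0.979), Acaa1b, mt-Co2, Cmbl and Smim24. Among the members themselves the highest r was 0.99, between Cyp3a25 and Cyp2b10, and the lowest 0.47, between Cyp3a13 and Nr1i2.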

How the data were processed

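Libraries were built with a droplet 3′ protocol (version 3 chemistry) and sequenced on an Illumina instrument, per the labels. The deposited matrix holds whole-number UMI counts for each gene in each barcode, not normalized by the authors. Cell Ranger 3.1.0, STAR 2.7.3a and bcl2fastq 2.20.0 are named in the submitters' processing notes, and the genome build is not given in the sources used here. Of the barcode sequences, 29 occur with both suffixes, 0 of them among kept cells.

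Levels are UMIs summed over cells per 1000000 UMIs (CPM), computed with Python 3.11.15, numpy 2.4.6 and scipy 1.17.1, with exact Poisson intervals for levels and Clopper-Pearson intervals for shares. A count of 0 was bounded by 3 counts. Fold marks used CPM plus a pseudocount of 1, which understates low genes, and genes with at least 50 UMIs. Thinned shares are hypergeometric expectations at 2000 UMIs. No doublet caller was run, and an alternative left out cells that passed 2 lineage gates or lay in the top 5% of UMIs. Fold marks and thinning were checked on simulated counts.

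The members, markers and lists were chosen with earlier results of these data known, and the gate thresholds were set after an exploratory look at the values. All 10 members are named, each with the 5 non-member genes of highest correlation (at least 10 CPM; 2 of these are not reported here), and from the list those past 1.5-fold at 10 CPM or more. Alternatives varied the mitochondrial limit, minimum depth, denominator, pseudocount, gene filter, gate threshold, thinning and fold.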

Additional observations from a re-analysis of the deposited data

Results flagged for a closer look

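Barcodes outside the cell filter were not used in the levels above and also hold UMIs of the 10 genes. Of all UMIs of a gene, these barcodes held 37.1% for Cyp3a11, 30.2% for Cyp3a13, 40.5% for Cyp3a25, 34.5% for Cyp2c29, 28.6% for Cyp2c65 and 28.9% for Cyp2c66. The share was 34.6% for Cyp2b10, 37.4% for Nr1i2, 52.8% for Nr1i3 and 38.9% for Ces2a. The same barcodes held 41.9% of all UMIs and 25.3% of the UMIs that are not mitochondrial. Every member thus had a larger share of its UMIs there than the non-mitochondrial total, and Nr1i3 alone had more than 50%. How many of all genes also lay above that total was not counted. On the scale of CPM of non-mitochondrial UMIs, Cyp3a11 stood at 248 in the left-out barcodes of set 1 and at 654 in those of set 2, and Nr1i3 at 43.4 and 57.8.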

How the results depend on the processing

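The counts of members and list genes between the sets over all kept cells, and of members in the enterocyte gate, were recomputed under the alternatives that apply to each, and 70 of 80 stayed within 1.5 times their value. The other counts were not recomputed. The 6 members higher in set 2 became 4 with a mitochondrial limit of 10%, 3 at a 2-fold mark and 2 at the cell makeup of set 1 (an alternative chosen after seeing the data). The count of members lower in set 2 was 0 under all settings tried. The 8 list genes higher in set 2 became 4 with a pseudocount of 10 CPM and 2 at a 2-fold mark. The 5 lower ones became 3 without a mitochondrial limit, 8 with a limit of 10%, 8 when cells were averaged with equal weight, 0 with a pseudocount of 10 CPM, 1 at a 2-fold mark and 3 at the makeup of set 1. With a mitochondrial limit of 10% the log2 ratio between the sets reversed to -0.086 for Cyp3a25, -0.065 for Cyp2c66 and -0.29 for Nr1i3. The cause was not tested. The 280 log2 folds of the enterocyte gate kept their sign, but 141 of them moved beyond their counting interval, as did 64 of 100 levels. The log2 ratios between the sets kept their sign in 125 of 130 cases. The alternative fold marks and gene filters do not enter these log2 folds and ratios, so those settings could not change them. Leaving out the 3 cells with most UMIs of a member likewise could not move a count of list genes. Of 42 values of the Cyp2c65 share of its pair, 35 stayed within the counting interval. Low levels of Nr1i2 and Nr1i3 in the small gates are limited by depth.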
